A study of Mus musculus with 6 samples.

Results

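The large-subunit proteins of the mitochondrial ribosome are encoded in the nucleus by the *Mrpl* genes, and they were taken here as every gene of the count table whose symbol is Mrpl followed only by digits. The rule found 47 of the 34573 genes in the table, of which 46 held enough reads to be tested and 1, *Mrpl53*, did not. The mitochondrial ribosome translates the few respiratory-chain and ATP synthase proteins that mitochondrial DNA still encodes. Its large subunit holds the peptidyl transferase centre and the tunnel through which the new chain leaves towards the inner membrane. Some of its proteins descend from those of the bacterial ribosome and others were added in mitochondria. Hematopoietic stem cells (HSCs) are known to be sensitive to the rate of protein synthesis and to keep mitochondrial activity low at rest.

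RNA was sequenced from HSCs sorted by flow cytometry from the bone marrow of young adult mice as lineage-negative CD48- CD150+ cells, which the study's methods define as also Kit+ and Sca1+. In 3 libraries the mice lacked *Rpl22*, a protein of the cytosolic ribosome, in the germline and therefore in every tissue (Rpl22-/-), and in 3 libraries they were wild type (Rpl22+/+). Neither group was treated, and each sample gave 1 mRNA library with 1 column of gene counts. The labels do not tie a library to an animal, so p-values measure the spread between these libraries, and in bulk RNA fewer cells of a type and less RNA per cell cannot be told apart.

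Gene counts summed to between 9321123, in Rpl22+/+ replicate 3, and 13385850 per library. Reads of *Rpl22* numbered 449, 527 and 546 in Rpl22-/- against 6890, 7001 and 5031 in wild-type libraries, a log2 difference of -3.75 (SE 0.105, adjusted p = 2.97e-12, edgeR quasi-likelihood test, Benjamini-Hochberg), so every library matched its label. All 10 HSC marker genes listed, among them *Mecom*, *Hlf* and *Procr*, passed the filter on low counts, and their summed level was 2580 to 2850 CPM (counts scaled to a common library total) in Rpl22-/- and 2760 to 2800 CPM in Rpl22+/+ libraries. Of these markers 5 had a positive and 5 a negative log2 fold change, and at an unadjusted p below 0.05 by edgeR 1 was higher and 3 lower. In 3 (30%) each Rpl22-/- library lay below each Rpl22+/+ library, against 13.6% of all genes tested. In 0 each lay above, against 13.3%. *Fgd5* fell (log2 fold change -0.41, adjusted p = 0.0308 by edgeR). In a chi-square comparison of counts over genes, pairs of Rpl22-/- libraries differed by 9.54 to 13.87 times the sampling noise and pairs of Rpl22+/+ libraries by 4.08 to 6.04 times.

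More *Mrpl* genes were higher than lower in Rpl22-/- HSCs, and the differences were small. Of the 46 genes tested, 39 had a positive and 7 a negative log2 fold change, at a median of 0.174 and with a range from -0.17 to 0.70, whereas the median of all 14004 genes tested was -0.007. Of these, 6 of 46 (13%) rose at an adjusted p below 0.05: *Mrpl42*, *Mrpl52*, *Mrpl47*, *Mrpl22*, *Mrpl12* and *Mrpl54*. Among all genes tested 3.28% rose by the same call. No *Mrpl* gene fell, against 2.29% of all genes, and at an unadjusted p below 0.05 there were 18 higher (39.1%) and 0 lower *Mrpl* genes by edgeR, against 11.6% and 10.7% of all genes. In 13 of the 46 genes (28.3%) each Rpl22-/- library lay above each Rpl22+/+ library, which held for 13.3% of all genes, and in 0 each lay below, against 13.6%. The number of *Mrpl* calls changed with the library left out. It was 11 without Rpl22-/- replicate 1, 2 without Rpl22-/- replicate 2 and 0 without Rpl22-/- replicate 3. It was 2 without Rpl22+/+ replicate 1, 2 without Rpl22+/+ replicate 2 and 1 without Rpl22+/+ replicate 3. Calls over all genes were likewise most without Rpl22-/- replicate 1 and fewest without Rpl22-/- replicate 3, and each such fit has fewer libraries. The number of *Mrpl* calls also fell to 3 when a trend on gene length was removed, where 2.78% of all genes rose. The number fell to 2 when the trends on length and GC content were both removed, where 2.21% of all genes rose. Each trend was fitted within each library, to the log level of the genes relative to their means over the libraries.

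**Figure D1:**
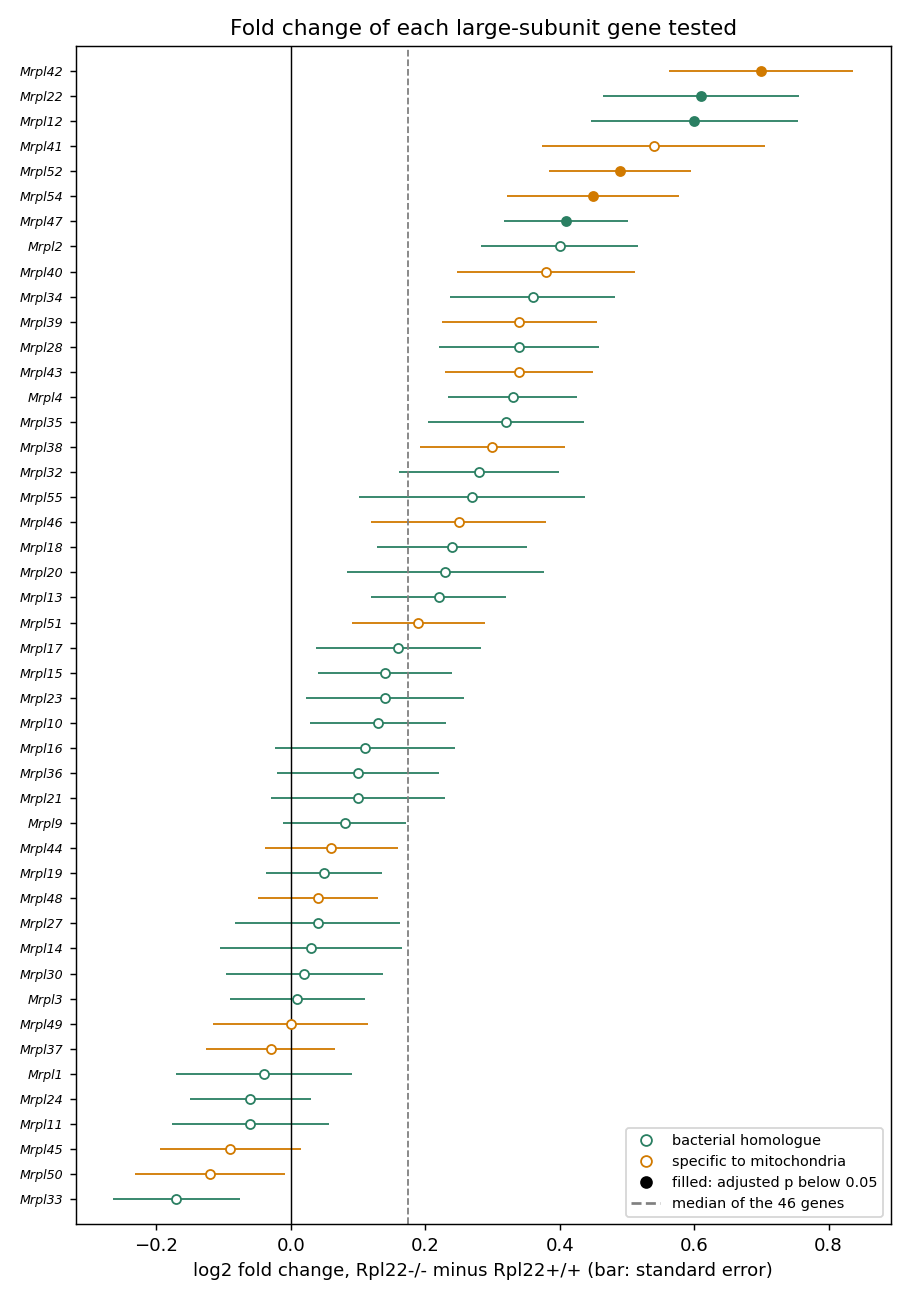
Log2 fold change (x axis, Rpl22-/- minus Rpl22+/+) of each of the 46 *Mrpl* genes tested, ordered by size, with its standard error as a bar; colour gives the evolutionary group, filled points have an adjusted p below 0.05 and the dashed line is the median of 0.174. Points run from *Mrpl33* at -0.17 to *Mrpl42* at 0.70, and 39 lie to the right of 0.

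The promoters of the genes with the smallest p-values are shown because the best known regulators of nuclear genes for mitochondria, among them NRF1, the ETS factor GABP and YY1, bind just upstream of such genes. The sequences were taken from RefSeq (GRCm38.p6) and run 5′ to 3′ on the gene's strand from 250 bases before to 50 bases after the start. Capitals mark a match, on either strand, to CCGGAAGT (GABP), CGCATGCG (NRF1 core) or AAGATGGC (YY1). *Mrpl42* is at chr10:95501900-95502199 (minus strand), *Mrpl52* at chr14:54426659-54426958 (plus), *Mrpl47* at chr3:32736706-32737005 (minus) and *Mrpl22* at chr11:58171414-58171713 (plus). *Mrpl22* was added to the others after its match was seen.
Mrpl42: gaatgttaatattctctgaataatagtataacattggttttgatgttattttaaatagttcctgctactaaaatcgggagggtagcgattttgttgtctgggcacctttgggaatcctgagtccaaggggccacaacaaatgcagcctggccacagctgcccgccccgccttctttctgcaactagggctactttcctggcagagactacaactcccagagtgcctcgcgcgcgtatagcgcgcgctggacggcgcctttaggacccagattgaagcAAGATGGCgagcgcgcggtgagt
Mrpl52: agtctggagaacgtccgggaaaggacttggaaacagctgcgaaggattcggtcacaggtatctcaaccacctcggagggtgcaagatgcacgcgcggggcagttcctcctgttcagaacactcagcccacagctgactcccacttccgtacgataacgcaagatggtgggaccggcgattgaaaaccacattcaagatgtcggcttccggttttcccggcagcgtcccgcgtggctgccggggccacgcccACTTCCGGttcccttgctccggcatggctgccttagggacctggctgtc
Mrpl47: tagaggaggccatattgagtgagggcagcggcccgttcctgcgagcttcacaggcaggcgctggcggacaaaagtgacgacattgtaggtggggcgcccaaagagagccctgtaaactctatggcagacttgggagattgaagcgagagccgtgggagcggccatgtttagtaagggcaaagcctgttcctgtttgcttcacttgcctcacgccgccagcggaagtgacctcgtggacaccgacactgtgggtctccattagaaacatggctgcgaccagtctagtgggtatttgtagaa
Mrpl22: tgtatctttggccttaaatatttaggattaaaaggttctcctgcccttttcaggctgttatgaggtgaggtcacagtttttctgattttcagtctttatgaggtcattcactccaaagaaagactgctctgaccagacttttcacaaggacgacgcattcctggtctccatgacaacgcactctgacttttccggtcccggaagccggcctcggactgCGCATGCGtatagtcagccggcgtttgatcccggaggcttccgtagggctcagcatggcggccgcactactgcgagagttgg
*Mrpl42* held the YY1 letters just after its start, *Mrpl52* the GABP letters on the opposite strand and *Mrpl22* the NRF1 letters upstream of its start, while the *Mrpl47* window held none of the 3.

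RefSeq promoters were at hand for 41 of the 47 genes, in 46 windows. The NRF1 letters were present in a window of 14.6% of these 41 genes and of 2.068% of all genes with a window. All genes with a window were counted, whether or not they passed the filter on low counts. The GABP letters were found at 19.5% of the *Mrpl* genes against 4.307% of all, and the YY1 letters at 14.6% against 3.19%. CACGTG, an E-box that Myc and other factors can bind, was found at 4 of the 41 (9.76%) against 8.093%, a share near that of all genes. The NRF1 letters were found at *Mrpl9*, *Mrpl10*, *Mrpl17*, *Mrpl22*, *Mrpl32* and *Mrpl39*, and the GABP letters at *Mrpl3*, *Mrpl18*, *Mrpl27*, *Mrpl33*, *Mrpl43*, *Mrpl48*, *Mrpl51* and *Mrpl52*. Matches were found at genes with high and with low fold changes, *Mrpl22* and *Mrpl33* among them. Among the genes that rose, the *Mrpl12* window held none of the 4 motifs and *Mrpl54* had no window; these genes lie at chr11:120484613-120489065 (plus strand) and chr10:81264713-81266934 (minus strand) in GRCm38. A match describes letters in the window and not binding.

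*Mrpl42*, one of the proteins added in mitochondria, changed most. Its level was 69.9, 103.0 and 86.5 CPM in Rpl22-/- replicates 1, 2 and 3 and 58.2, 57.8 and 42.3 CPM in Rpl22+/+ replicates 1, 2 and 3. The groups did not overlap, and Rpl22-/- replicate 2 was the highest of all 6 libraries. The log2 fold change was 0.70 (SE 0.137, adjusted p = 0.0107 by edgeR), or 1.63-fold. It passed the threshold under 17 of 18 other ways of processing, failing only without Rpl22-/- replicate 3, where its adjusted p was 0.0628.

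*Mrpl52*, also without a bacterial counterpart, had 48.7, 52.9 and 45 CPM in the Rpl22-/- libraries and 38, 32.7 and 33.9 CPM in the Rpl22+/+ libraries. Each Rpl22-/- library was above each Rpl22+/+ library, with an SD of 3.9 CPM in Rpl22-/- and 2.8 CPM in Rpl22+/+ libraries. The log2 fold change was 0.49 (SE 0.106, adjusted p = 0.0179 by edgeR). *Mrpl54*, a further mitochondrial addition and the least abundant of the 6 in CPM, had 27, 29.3 and 24.9 CPM in Rpl22-/- and 19.7, 21.6 and 17.9 CPM in Rpl22+/+ libraries. Its groups did not overlap either, but its adjusted p of 0.0491 (log2 fold change 0.45, SE 0.128, edgeR) was just inside the threshold and passed under 6 of 18 other ways of processing, against 12 of 18 for *Mrpl52*.

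*Mrpl22* and *Mrpl47* encode homologues of bacterial proteins at the polypeptide exit tunnel, *Mrpl22* reaching into its wall and *Mrpl47* lying at its mouth. For *Mrpl22*, levels were 26.7, 37.0 and 29.9 CPM in Rpl22-/- and 19.6, 23.6 and 18.1 CPM in Rpl22+/+ libraries. All Rpl22-/- values were higher, the lowest by a small margin (log2 fold change 0.61, SE 0.146, adjusted p = 0.0260 by edgeR), and the call held under 12 of 18 other ways of processing. It was lost with the length trend or both trends removed and in 4 of the 6 fits that left out a library. For *Mrpl47*, levels were 68.6, 73.5 and 71.9 CPM in Rpl22-/- and 56.8, 55.4 and 48.1 CPM in Rpl22+/+ libraries. This gene had the tightest Rpl22-/- values of the 6 relative to its mean (71.3 ± 2.51 CPM, SD, n = 3) and a log2 fold change of 0.41 (SE 0.0922, adjusted p = 0.0190 by edgeR), which passed under 14 of 18 and was lost in 4 of the 6 fits without a library. Of its exon bases 616 (13.9%) overlap *Ndufb5*, a subunit gene of respiratory complex I on the opposite strand. The strand setting of the counting is not given in the sources used here, so how reads of these bases were assigned is not known. The log2 fold change of *Ndufb5* was 0.29, with an adjusted p of 0.0781 by edgeR.

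*Mrpl12* encodes the flexible stalk protein that recruits translation factors to the ribosome, and it was the only one of the 6 whose groups overlapped. Its level was 57.2, 103.0 and 84.3 CPM in Rpl22-/- and 57.6, 54.4 and 48.5 CPM in Rpl22+/+ libraries. Replicate 1 of Rpl22-/- thus lay within the wild-type range, while the other two were well above it. The log2 fold change of 0.60 (SE 0.154, adjusted p = 0.0338 by edgeR) ranged from 0.40 to 0.81 over the other ways of processing and passed under 8 of 18. The stalk's other proteins did not pass: *Mrpl10*, which carries the *Mrpl12* protein, had 47.3 ± 2.57 CPM in Rpl22-/- and 43.1 ± 3.62 CPM in Rpl22+/+ libraries (SD, n = 3, log2 fold change 0.13), and *Mrpl11*, at the stalk base, had 29.8 ± 2.91 and 31.1 ± 1.66 CPM (log2 fold change -0.06).

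**Figure D2:**
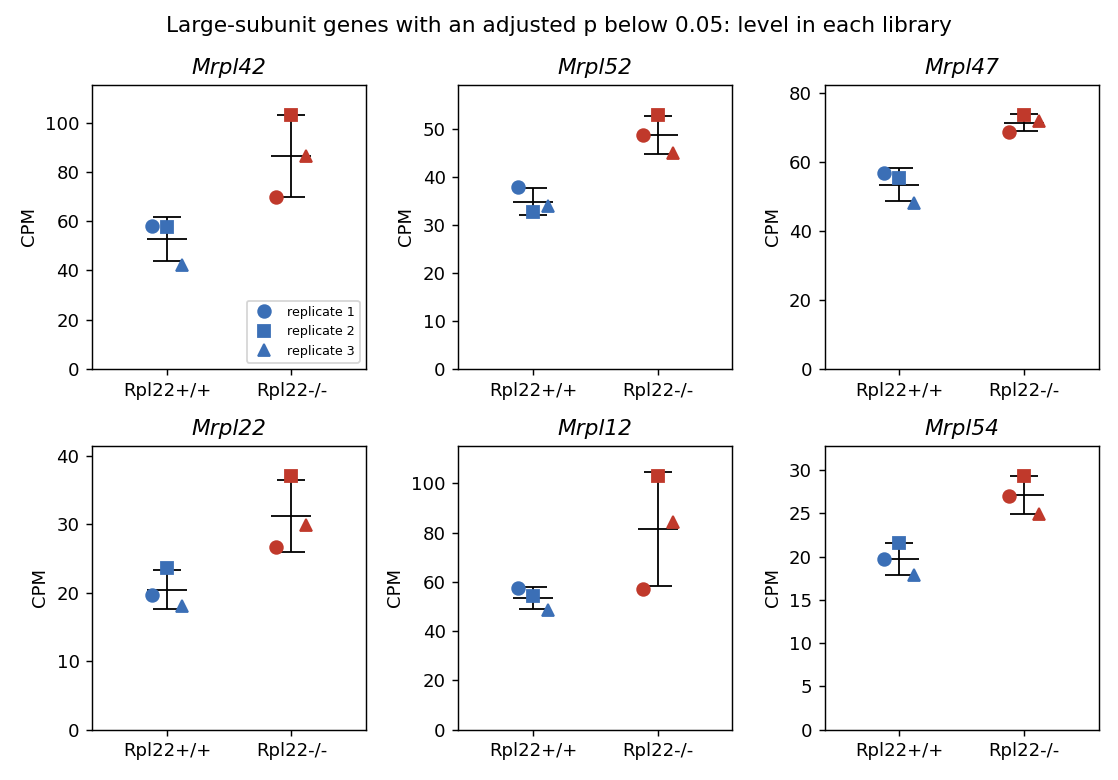
Level of the 6 *Mrpl* genes that rose, in CPM from 0 (y axis), in each Rpl22+/+ (blue) and Rpl22-/- (red) library, with marker shape for the replicate number and black lines for the mean and SD of 3 libraries. The groups are separate in 5 genes and overlap in *Mrpl12*, where Rpl22-/- replicate 1 is at 57.2 CPM, and Rpl22-/- replicate 2 is the highest library in every panel.

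Just outside the threshold lay *Mrpl2* and *Mrpl4*, both with an adjusted p of 0.0572 by edgeR. The *Mrpl2* protein sits by the peptidyl transferase centre and the *Mrpl4* protein lines the tunnel. *Mrpl4* had 45.4, 46 and 44.6 CPM in Rpl22-/- and 36.7, 35.2 and 36.3 CPM in Rpl22+/+ libraries, a close agreement within each group (log2 fold change 0.33). *Mrpl41* had the fourth highest log2 fold change of the 46 at 0.54, but with 25.6, 38.5 and 25.3 CPM in Rpl22-/- against 20.3, 23.3 and 17.6 CPM in Rpl22+/+ libraries its adjusted p was 0.0671 by edgeR. In all, 12 genes that did not pass after adjustment had an unadjusted p below 0.05, and each of these 12 had a positive fold change.

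At the other end, no *Mrpl* gene passed the test downwards. The lowest log2 fold changes belonged to *Mrpl33* (-0.17), *Mrpl50* (-0.12), *Mrpl45* (-0.09), *Mrpl24* (-0.06) and *Mrpl11* (-0.06), with adjusted p from 0.294 upwards by edgeR. *Mrpl33* had 56.9, 53.3 and 51.4 CPM in Rpl22-/- and 62.4, 64.7 and 54.9 CPM in Rpl22+/+ libraries, so that its groups overlapped. The *Mrpl45* protein anchors the ribosome to the inner membrane beside the tunnel exit. Its level was 37.3 ± 3.17 CPM in Rpl22-/- and 39.7 ± 1.02 CPM in Rpl22+/+ libraries (SD, n = 3). *Mrpl44*, whose protein has an RNase III-like fold, had 45.7 ± 3.71 and 43.8 ± 0.972 CPM (log2 fold change 0.06). Of the 46 genes, 15 had a log2 fold change within 0.1 of 0.

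By place and origin the genes divided as follows. Of 30 proteins with a bacterial homologue 26 were positive, 3 rose (10%) and the median log2 fold change was 0.14. Of the 16 tested that are specific to mitochondria 13 were positive, 3 rose (18.8%) and the median was 0.277. Around the tunnel exit 6 of 8 were positive with a median of 0.148, and *Mrpl22* and *Mrpl47* rose. The 6 proteins of the central protuberance, the crest that faces the small subunit and in mitochondria has lost its 5S RNA, were all positive between 0.04 and 0.38 (median 0.245), but 0 of them passed edgeR's test, 2 having an unadjusted p below 0.05. The difference between these groups was not tested.

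Levels per transcript length spanned a wide range although the proteins are present once or a few times in each subunit. In Rpl22+/+ libraries the median was 28.1 RPKM, that is, CPM per kilobase of the principal transcript. The highest were *Mrpl33* (127 ± 10.7 RPKM), *Mrpl24* (102 ± 4.06 RPKM) and *Mrpl52* (83.4 ± 6.70 RPKM), and the lowest *Mrpl17* (5.33 ± 0.886 RPKM), *Mrpl1* (7.37 ± 0.162 RPKM) and *Mrpl35* (7.61 ± 0.684 RPKM; all SD, n = 3). The range and order depend on the transcript chosen, which is 478 of 7326 exon bases in *Mrpl33* and 7300 of 7605 in *Mrpl17*. In Rpl22+/+ libraries *Mrpl33* had 60.7 CPM and *Mrpl17* 38.9 CPM, at a median of 35.9 CPM over the genes tested. *Mrpl33* and *Mrpl24* were also among those with the lowest fold changes, whereas *Mrpl52* rose (log2 fold change 0.49). Across the 46 genes log2 fold change had a Spearman correlation of -0.12 with mean CPM. The tested genes had between 84 and 1861 reads in a library, and the median coefficient of variation was 8.94% in Rpl22-/- and 8.4% in Rpl22+/+ libraries, with the larger SD in Rpl22-/- in 29 of the 46. *Mrpl53* was listed at 0 in all 6 libraries, and 695 of its exon bases (88.0%) are shared on the same strand with another annotated gene, *Gm42688*.

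The libraries of a group differed in how many *Mrpl* genes they carried high. Summed over the genes, the level was 2035, 2282 and 2041 CPM in Rpl22-/- replicates 1, 2 and 3 and 1955, 1890 and 1733 CPM in Rpl22+/+ replicates 1, 2 and 3. Rpl22-/- replicate 2 was the highest and Rpl22+/+ replicate 3 the lowest, and the sums did not overlap. Replicate 2 was the highest Rpl22-/- library in 36 of the 46 genes. It had 93.5% of the genes above the Rpl22+/+ mean, against 76.1% and 65.2% in replicates 1 and 3, and Rpl22+/+ replicate 1 also had 82.6% above it. The share of mitochondrially encoded reads was also highest in Rpl22-/- replicate 2 (3.83%) and lowest in Rpl22+/+ replicate 3 (3.06%), and the share of reads assigned to no gene was lowest in the former (58.63%) and highest in the latter (60.87%). Their part in the *Mrpl* result was not tested. Without Rpl22-/- replicate 2 the median log2 fold change was 0.106, and without Rpl22+/+ replicate 3 it was 0.116.

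Several measures moved with genotype beside this result. Across the 46 genes, log2 fold change had a Spearman correlation of -0.39 with exon length and 0.39 with GC content, against -0.21 and 0.28 across 13363 genes of all kinds. *Mrpl* genes are short, with a median exon length of 2394 bases against 4234 in that larger set, and the points share the same 6 libraries. With both trends removed the median log2 fold change was 0.120 and 34 genes were positive. Of the 6 megakaryocyte markers, genes of the platelet lineage, 4 rose (*Pf4*, *Itga2b*, *Gp1ba* and *Gp9*), and their sum was 982 to 1240 CPM in Rpl22-/- against 712 to 927 CPM in Rpl22+/+ libraries. The 6 neutrophil markers summed to 89.6 to 207 CPM against 65.8 to 103 CPM with 0 passing edgeR's test and 3 at an unadjusted p below 0.05. Markers of other lineages were low: erythroid markers summed to 27.1 to 31.3 against 26.4 to 27.3 CPM, B cell markers to 24.6 to 28.2 against 21.2 to 23.4 CPM, and T cell markers to 9.74 to 11.9 against 7.28 to 9.45 CPM with *Cd3e* and *Trac* at 0 in every library. Macrophage markers overlapped, at 191 to 250 against 201 to 214 CPM. The part of these cell types in the *Mrpl* result was not tested.

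Other genes of mitochondrial translation are given for comparison. Of 31 genes of the mitochondrial small subunit 22 were positive, the median was 0.182 on the log2 scale, and 2 rose (6.45%). These were *Mrps23* (64.7 ± 11.6 CPM in Rpl22-/- and 44.7 ± 3.65 CPM in Rpl22+/+, SD, n = 3; log2 fold change 0.53, adjusted p = 0.0219 by edgeR) and *Mrps36* (17.9 ± 1.11 and 12.4 ± 1.51 CPM, adjusted p = 0.0450 by edgeR), whose product is also described as part of the 2-oxoglutarate dehydrogenase complex. The small subunit thus had a median near that of the large one. At an unadjusted p below 0.05 by edgeR 41.9% of its genes were higher and 0 lower, against 39.1% and 0 of the *Mrpl* genes. In 38.7% each Rpl22-/- library lay above each Rpl22+/+ library, against 28.3% of the *Mrpl* genes and 13.3% of all genes. In 6.45% each lay below, against 0 of the *Mrpl* genes and 13.6% of all genes. The large-subunit genes listed under other symbols, *Mrp63*, *Gadd45gip1* and *Ict1*, had log2 fold changes of 0.22, 0.19 and 0.13, and none of the 3 passed edgeR's test at either an adjusted or an unadjusted p of 0.05.

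Assembly factors of the mitochondrial ribosome were divided, with 9 of 21 positive and a median of -0.003. None passed edgeR's test after adjustment, and 4 had an unadjusted p below 0.05, 2 in each direction. Among 12 mitochondrial translation factors the median was 0.128. *Guf1*, a ribosome-binding GTPase, fell from 168 ± 2.44 CPM in Rpl22+/+ to 127 ± 17.3 CPM in Rpl22-/- libraries (SD, n = 3; log2 fold change -0.39, adjusted p = 0.0285 by edgeR). *Tufm*, the mitochondrial elongation factor, had 0.34 and an adjusted p of 0.101 by edgeR. For the 5 genes of mitochondrial transcription, the polymerase *Polrmt* among them, the median was -0.111 and 0 passed edgeR's test, at an adjusted or an unadjusted p of 0.05.

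Of the 10 regulators of nuclear genes for mitochondria only *Myc*, a transcription factor that drives ribosome production, passed. It was higher in Rpl22-/- libraries, at 398 ± 36.1 against 270 ± 62.1 CPM (SD, n = 3; log2 fold change 0.56, adjusted p = 0.0243 by edgeR). *Nrf1*, *Gabpa* and *Yy1*, whose letters were searched above, had log2 fold changes of 0.17, 0.10 and 0.01 and did not pass. The cytosolic large subunit, without *Rpl22* and *Rpl22l1*, had 30 of 46 genes positive and its median was 0.144 on the log2 scale. Of its genes 5 were called higher (10.9%) and 1 lower (2.17%). *Rpl36* (0.77), *Rplp1* (0.46) and *Rpl18* (0.39) were among those that rose and *Rpl39* (-0.63) was the one that fell. At an unadjusted p below 0.05 by edgeR 37.0% of the cytosolic list were higher and 8.7% lower. In 41.3% of that list each Rpl22-/- library lay above each Rpl22+/+ library, and in 10.9% each lay below. For all genes these shares were 13.3% and 13.6%. Positive medians were therefore not particular to the mitochondrial ribosome, and the difference between the 2 lists was not tested.

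**Figure D3:**
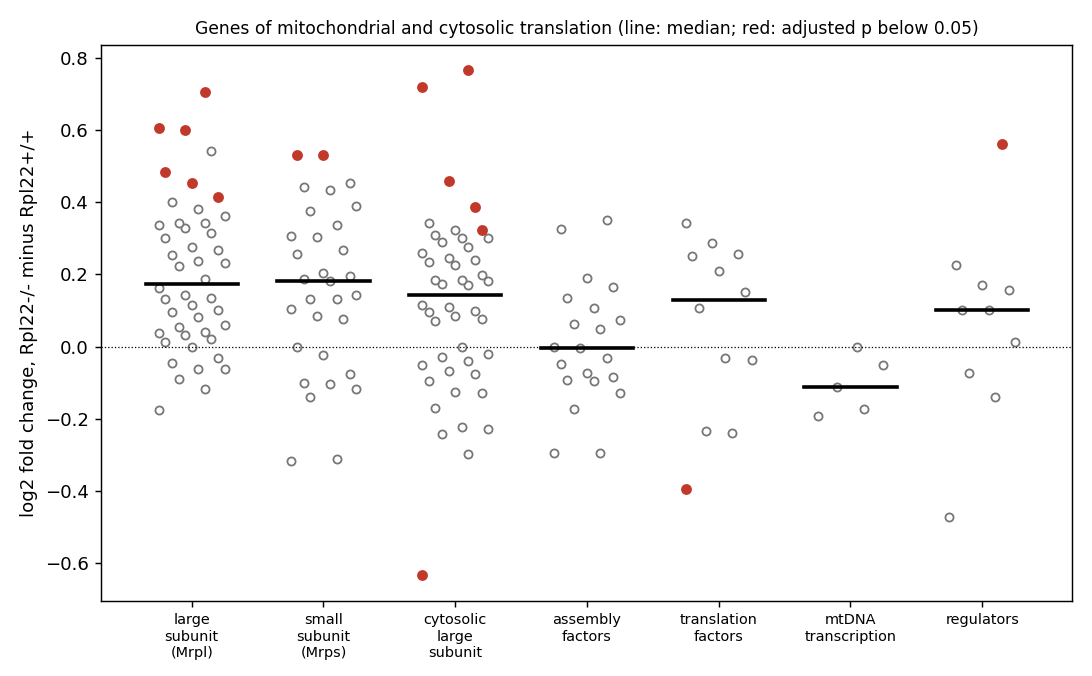
Log2 fold change (y axis, Rpl22-/- minus Rpl22+/+) of each tested gene in 7 lists, with the list median as a black line and genes with an adjusted p below 0.05 in red. The medians of the large subunit (0.174), small subunit (0.182) and cytosolic large subunit (0.144) lie above 0, that of the assembly factors (-0.003) close to 0 and that of mitochondrial transcription (-0.111) below it.

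Near-identical copies and overlapping genes could take or lend reads. Of the 47 genes 21 share exon bases with another gene, 17 of them with one on the opposite strand, and 19 have a pseudogene copy of at least 90% identity over 100 bases or more. For *Mrpl42* the copy *Gm6419* (429 bases at 96.27%) and for *Mrpl12* the copy *Gm15770* (597 bases at 93.97%) were listed at 0 in all 6 libraries. *Mrpl22* has a copy of 621 bases at 97.1% and *Mrpl47* one of 762 bases at 90.9%, neither of which was in the table, while *Mrpl52* and *Mrpl54* had none. The counts of *Mrpl42*, *Mrpl12*, *Mrpl22* and *Mrpl47* are uncertain to that extent.

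**Figure D4:**
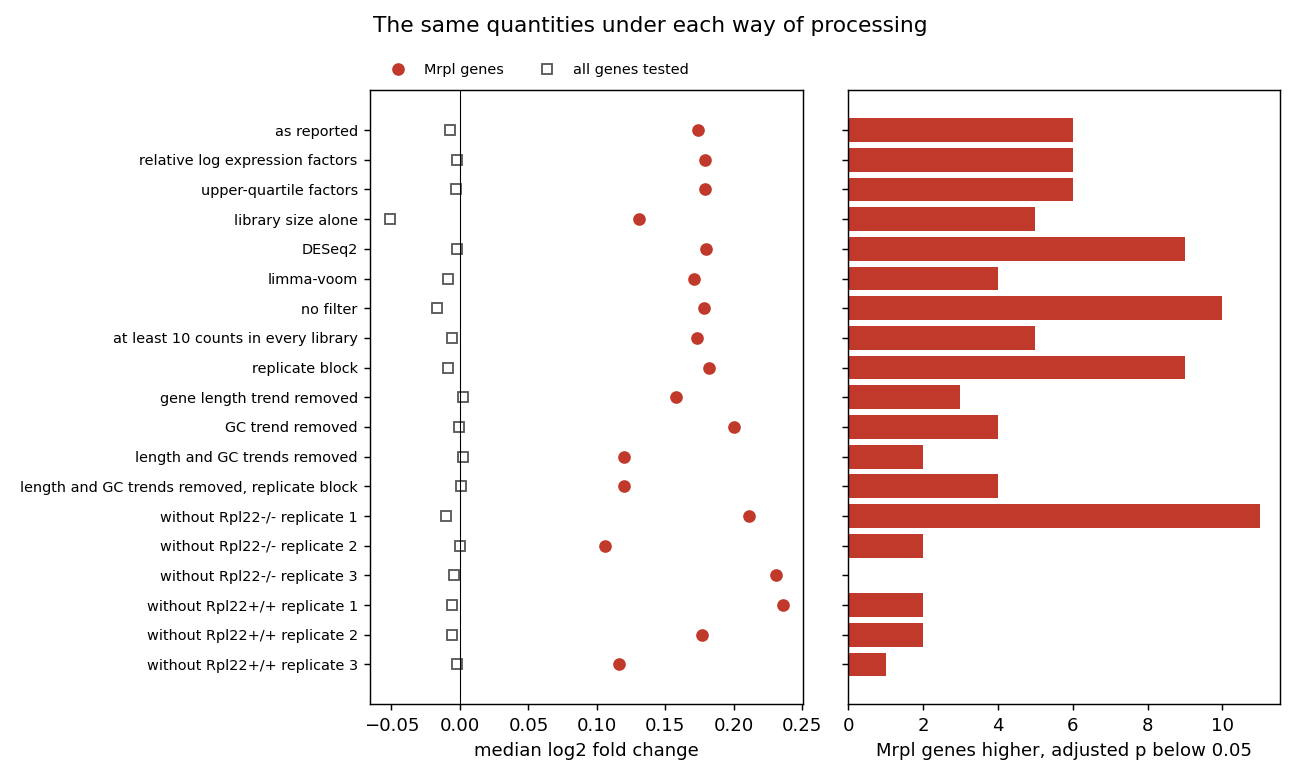
Median log2 fold change (left, x axis) of the *Mrpl* genes (red circles) and of all genes tested (open squares), and number of *Mrpl* genes higher at an adjusted p below 0.05 (right, x axis), as reported and under each of 18 other ways of processing. The median stays between 0.106 and 0.236 while the number of genes runs from 0 to 11.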

How the data were processed

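The series holds poly(A) libraries of 3 Rpl22-/- and 3 Rpl22+/+ samples of HSCs. The authors deposited 1 table of raw gene counts, 1 column per sample, made with TopHat2 2.1.1 and HTSeq on mm10 per the submitters' processing notes. The annotation release and the strand setting are not given in the sources used here. Reads that HTSeq assigned to no gene (58.63 to 60.87% of each column) were left out. The study's methods used DESeq2. Here edgeR 4.0.16 quasi-likelihood tests with trimmed mean of M values (TMM) factors were the main test (R 4.3.3), after its filter at a minimum count of 10, with Benjamini-Hochberg adjustment over all 14004 genes and a threshold of 0.05. DESeq2 1.42.0, limma 3.58.1 and other settings were alternatives, and the fit was tested on simulated data. CPM used TMM-scaled library sizes. Positions, lengths and overlaps came from GENCODE M21 (all 47 genes matched), and copies from BLAST 2.17.0. Named genes were *Rpl22*, all *Mrpl* genes past the threshold, the 5 highest and 5 lowest fold changes, the 3 highest and 3 lowest levels per length, *Mrpl53*, the stalk genes, *Mrpl44* and *Mrpl45*, and up to 5 passing genes per comparison list. A withheld item among the last is not reported here. *Mrpl2*, *Mrpl4* and genes given by overlap, by motif or as regulators were named after their values were seen. The genes and lists were chosen with earlier results of these data known.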

Additional observations from a re-analysis of the deposited data

How the results depend on the processing

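Over these alternatives, all drawn from the same 6 libraries, the direction was stable and the calls were not. The median log2 fold change of the *Mrpl* genes was positive under all 18 alternatives (0.106 to 0.236), 33 to 40 genes were positive, 0 were called lower in any, and *Rpl22* stayed between -3.81 and -3.65. The number called higher was 6 as reported, 10 with no filter on low counts, 3 with the length trend removed and 2 with the length and GC trends removed, and 0 to 11 when 1 library was left out. The cause was not tested, except that fewer libraries enter each leave-one-out fit. The number was 9 with DESeq2, 4 with limma-voom and 5 with scaling by library size alone. Of all genes tested, 3.28% rose as reported, 3.99% with no filter, 4.52% with DESeq2 and 3.01% with limma-voom. With library size alone 2.63% rose, with the length trend removed 2.78% and with both trends removed 2.21%. Scaling by library size alone moved the higher share of calls over all genes from 58.8% to 43.4%. Calls over all genes numbered 780 as reported, 1422 with no filter, 484 with the GC trend removed, 466 with both trends removed, and between 127 (without Rpl22-/- replicate 3) and 1720 (without Rpl22-/- replicate 1). With the replicate number as a block (replicate block) 9 *Mrpl* genes were called and 904 genes in all, and 4 with both trends removed as well. Of all genes tested, 3.7% rose with the block and 2.83% with the block and both trends removed. The labels give equal numbers no shared origin, and deviations of same-numbered libraries correlated at -0.103, 0.055 and 0.045. Whether the numbers pair the samples was not tested. The tested genes had 84 to 1861 reads in a library, which limits the precision most for the least abundant.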
